A study of Mus musculus with 12 samples.

Results

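The genes described here encode the dioxygenases that need Fe(II) and 2-oxoglutarate and can use ascorbate, leaving out the TET enzymes. They are 53 genes of the 20959 that the arrays' accessions could be matched to. They were chosen by name, from the known members of the enzyme family, and not by any measured value. Earlier results of these data were known when the choice was made. Total RNA of J1 cells, a mouse embryonic stem cell line adapted to growth on gelatin, was hybridised to one-colour Agilent arrays in 4 groups of 3 samples. All cells were kept in medium with 1000 U/mL LIF, the cytokine that holds such cells undifferentiated, and were treated for 24 h. VC samples received vitamin C, given in the labels as 50 μg with no volume, and ddH2O samples 1 μL of water. RA samples received 1 μM retinoic acid, a vitamin A derivative that drives differentiation, and DMSO samples 1 μL of solvent. VC and ddH2O were on one array design and RA and DMSO on another, so no level is set across the designs. The labels do not say whether samples of a group were separate cultures, so p-values measure only how these samples scatter, which can be technical scatter. The series asks which transcripts vitamin C and RA change, and vitamin C is the ascorbate that these enzymes can use.

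Enzymes of this family couple the oxidative decarboxylation of 2-oxoglutarate to the hydroxylation of a substrate, and ascorbate is thought to return their iron to the Fe(II) state. Many JmjC proteins remove methyl groups from histone lysines, and the prolyl and lysyl hydroxylases modify procollagen in the endoplasmic reticulum. The EGLN enzymes mark the HIF alpha subunits for destruction when oxygen is present. AlkB proteins remove alkyl groups from DNA and RNA, and others make carnitine or break down branched fatty acids.

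All 53 genes had a probe on both designs, 81 probes on the VC design and 74 on the RA design. Testing a gene required its brightest probe to exceed background clearly, by the scanner's own flag, on 3 or more of the 6 arrays. That left 50 members in VC against ddH2O, without P4ha3, P3h2 and Bbox1, and 51 in RA against DMSO, without Tmlhe and Bbox1. Values below are log2 scaled intensities, the log2 of the processed signal minus the 75th percentile of the same array, and differences are treated minus control on that log2 scale. A gene was called where the limma p, adjusted over all genes tested, was under 0.05, and the words rose and fell are used for called genes. Counts of calls in any group of genes below stand beside 17.1% of all genes called under VC and 78.0% under RA.

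On the VC design the 10 embryonic stem cell markers tested stood at a summed scaled intensity of 568 to 647 in ddH2O and 607 to 657 in VC. Their mean log2 scaled intensity was 3.97 to 4.05 in ddH2O and 4.19 to 4.29 in VC, without overlap, and 5 of the 10 (Esrrb, Klf4, Sall4, Utf1 and Zfp42) rose. The part of this shift in the VC calls was not tested. On the RA design that sum, over 12 markers, was 625 to 642 in DMSO and 91.0 to 99.7 in RA. In RA, 11 of the 12 fell and Nanog, at 1.32 (adjusted p = 9.1e-05), rose, though whether its probe is specific to Nanog was not tested. Fibroblast markers moved the other way, with 12 of 13 tested higher and 1 lower, and a summed scaled intensity of 3.25 to 3.47 in DMSO and 72.9 to 82.2 in RA. Of the 15 with a probe, 12 were well above background on each DMSO array and 13 on each RA array. A marker may therefore have passed the filter only through the RA arrays. Endoderm markers summed to 183 to 191 in DMSO and 265 to 277 in RA, with 13 of 15 higher and 2 lower. In bulk RNA a change in the share of cells of a type and a change in RNA per cell cannot be told apart. DMSO arrays shared a single slide and RA arrays a different one, so slide and treatment cannot be told apart in that comparison. On the VC design, ddH2O samples 2 and 3 and VC samples 1 and 2 shared a slide, and ddH2O sample 1 and VC sample 3 each had one of their own.

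In VC against ddH2O few members were called. Egln2, Kdm8, P4htm, Alkbh4 and Kdm6a rose, and P4ha2, Asph and P3h3 fell, so 5 of 50 members tested were called higher and 3 lower. Among all 14530 genes tested, 17.1% were called, 6.59% higher and 10.6% lower, so the members' share of 16% is near the background and is no result about the family. The median difference was 0.087 over the members and -0.001 over all genes. Groups did not overlap for 26 of the 50 members, against 41.9% of all genes. Scaling each array to its median gave 10 members higher and 2 lower, and scaling to the spike-in probes gave 9 and 2.

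In RA against DMSO, 11 of 51 members were called higher and 26 lower, with P3h2, P4ha2 and Asph the largest rises and Egln3, Kdm3a and Kdm4c the largest falls. Of all 16015 genes tested, 78.0% were called, 35.9% higher and 42.1% lower, against 72.5% of the members. The median difference was -0.287 over the members and -0.075 over all genes, and the groups did not overlap for 38 of the 51 members against 81.7% of all genes. Scaling to the array median moved the median of all genes to -0.416 and gave 8 members higher and 32 lower, and scaling to spike-ins moved it to -0.463 and gave 4 and 29. Both scalings lower every RA difference by a fixed amount, 0.34 and 0.39. Set against the median of all genes, 22 members lay above it and 29 below. By role, 8 of 9 collagen hydroxylases lay above that median, while 7 of 8 AlkB genes and 5 of 6 H3K9 demethylases lay below it. These 8 collagen hydroxylases, the 11 members called higher and the 38 without overlap include P3h2, which passed the filter only through the RA arrays. Without RA sample 3, 43 members were called, those added being Kdm3b, Jmjd4, Jmjd8, Plod1, Egln2 and Fto. Ogfod1 lost its call without any single DMSO sample or without RA sample 1, and Plod3 without DMSO sample 3.

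**Figure D1:**
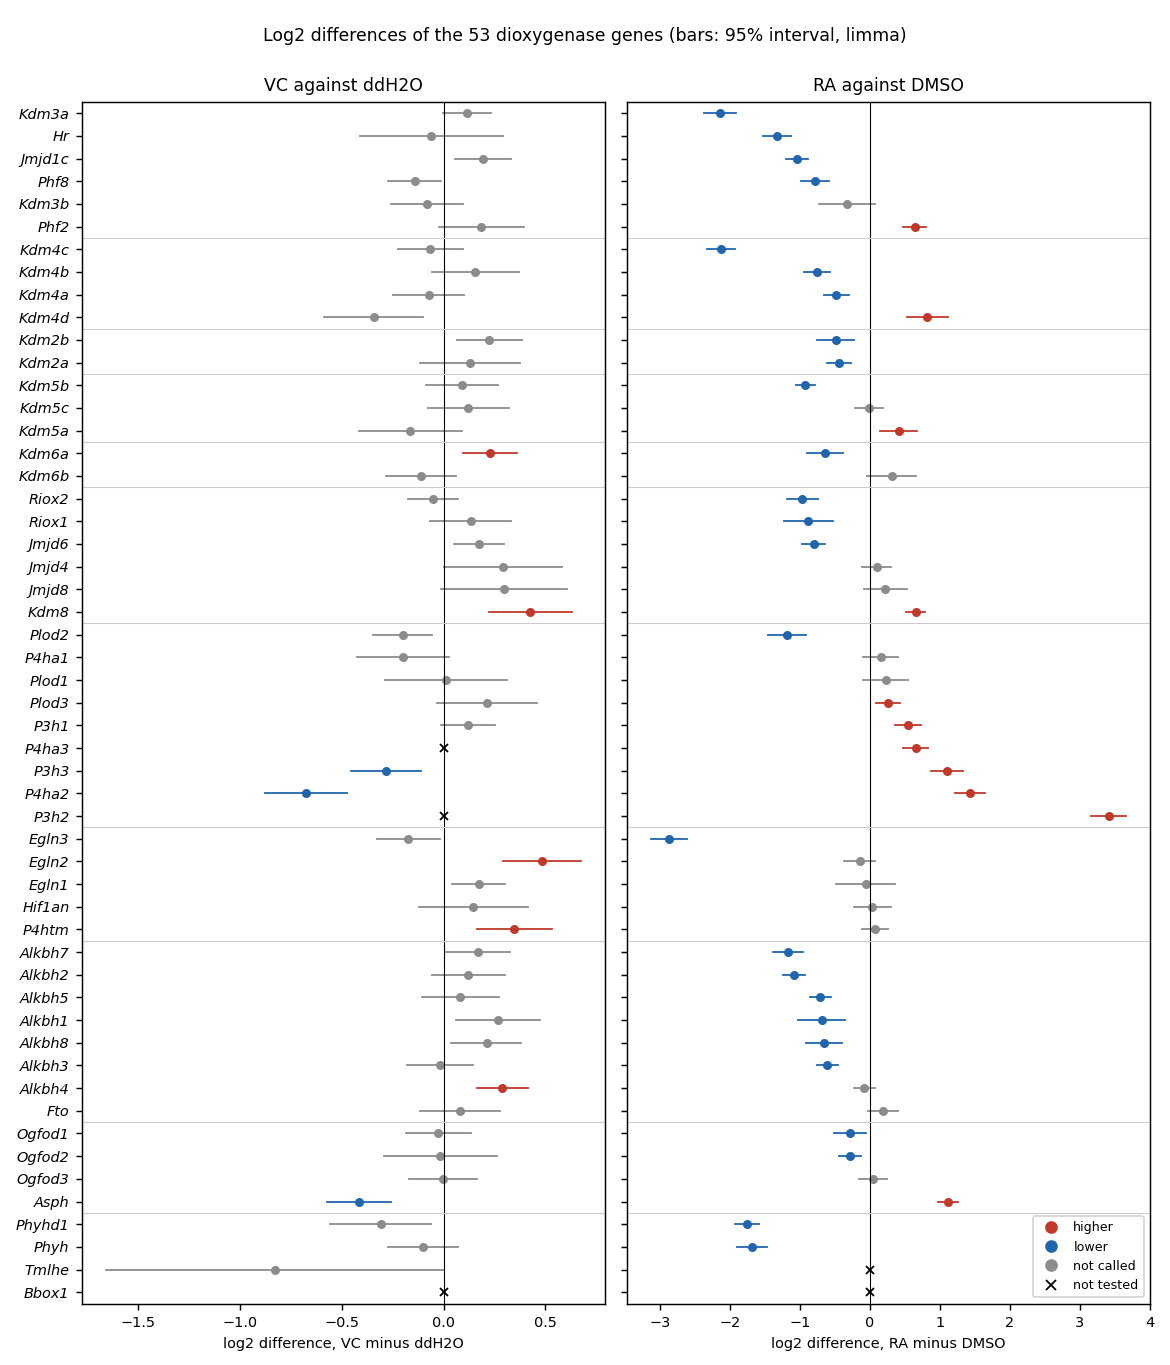
Log2 difference (horizontal axes, different ranges) of each of the 53 genes in VC against ddH2O and in RA against DMSO, with 95% intervals, grouped by role and sorted by the RA difference. Red genes were called higher and blue genes lower, grey genes were not called, and a cross at 0 marks a gene that was not tested. Apart from P3h2, drawn at its measured value although its DMSO level is only a bound, RA differences run from -2.88 to 1.43 and VC differences from -0.83 to 0.48.

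**Figure D2:**
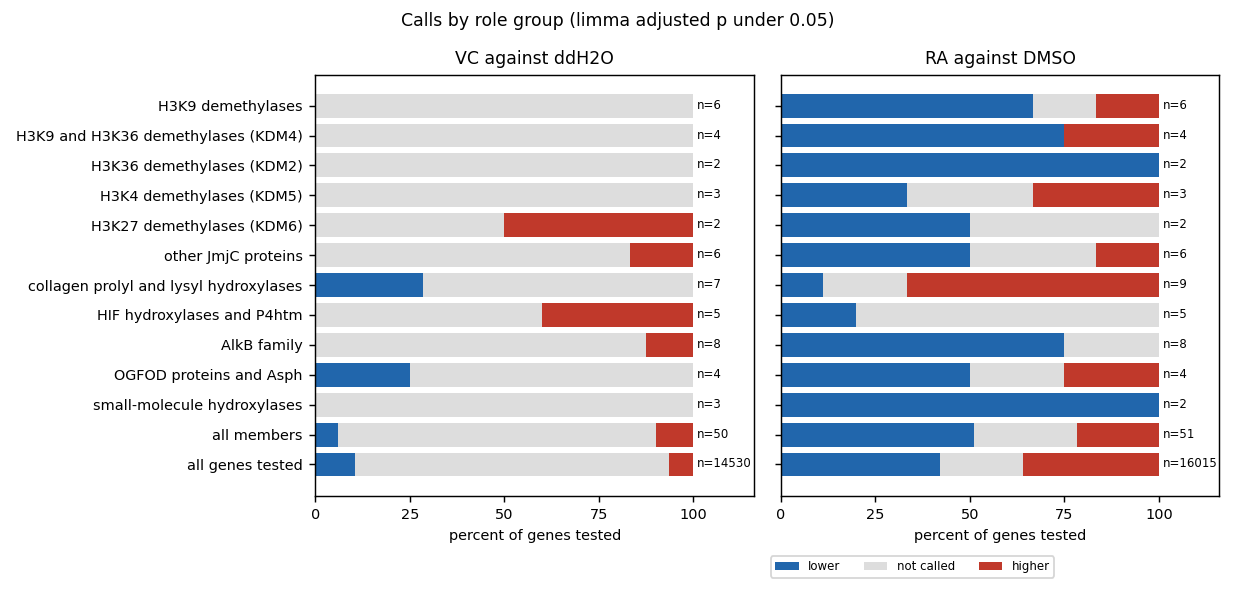
Percent of the genes tested in each role group that were called lower, not called or called higher, with all members and all genes tested as the last 2 bars and the number tested beside each bar. Under RA 6 of 9 collagen hydroxylases were higher and 6 of 8 AlkB genes lower. The collagen hydroxylases called higher include P3h2, which passed the filter only through the RA arrays. Scaling to the array median or to spike-ins lowers every RA difference by one amount and moves calls from higher to lower.

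Members that act in oxygen sensing or are known targets of the hypoxia-inducible factor HIF are shown first, with the bases before their start sites. EGLN1, EGLN2 and EGLN3 hydroxylate prolines of the HIF alpha subunits, and HIF1AN hydroxylates an asparagine there. HIF binds the letters ACGTG or GCGTG in target genes. RefSeq promoter windows on GRCm38.p6 were at hand for 42 of the 53 members, 55 windows in all. Both motifs were searched on both strands in the 250 bases before each start. ACGTG was in 16 of the 55 windows (29.1%) and in 16.6% of all 32851 windows, and GCGTG was in 23 (41.8%) and in 28.2% of all. The 5 windows below belong to the members that are on the list of HIF subunits and targets used here and have a window. They read 5′ to 3′ in the direction of the gene and end at the base before the start, and capitals mark ACGTG or GCGTG on either strand.
Egln3 (chr12:54203875-54204124, minus strand): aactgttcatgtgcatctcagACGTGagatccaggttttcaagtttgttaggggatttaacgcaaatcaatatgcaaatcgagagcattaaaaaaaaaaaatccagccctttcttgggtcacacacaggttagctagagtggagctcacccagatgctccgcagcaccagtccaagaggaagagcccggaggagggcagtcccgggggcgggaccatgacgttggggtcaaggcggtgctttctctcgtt
Kdm3a (chr6:71632918-71633167, minus strand): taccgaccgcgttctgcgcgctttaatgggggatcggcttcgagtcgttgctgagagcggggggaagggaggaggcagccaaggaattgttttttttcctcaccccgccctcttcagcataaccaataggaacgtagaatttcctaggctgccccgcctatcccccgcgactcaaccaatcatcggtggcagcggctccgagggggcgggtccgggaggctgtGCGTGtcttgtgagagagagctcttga
Egln1 (chr8:124949255-124949504, minus strand): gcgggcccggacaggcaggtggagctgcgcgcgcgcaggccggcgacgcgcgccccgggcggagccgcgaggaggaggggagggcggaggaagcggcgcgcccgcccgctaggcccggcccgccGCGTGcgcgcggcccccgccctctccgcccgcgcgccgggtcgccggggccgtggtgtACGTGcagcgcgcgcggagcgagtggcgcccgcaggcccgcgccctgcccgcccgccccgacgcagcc
P4ha1 (chr10:59323046-59323295, plus strand): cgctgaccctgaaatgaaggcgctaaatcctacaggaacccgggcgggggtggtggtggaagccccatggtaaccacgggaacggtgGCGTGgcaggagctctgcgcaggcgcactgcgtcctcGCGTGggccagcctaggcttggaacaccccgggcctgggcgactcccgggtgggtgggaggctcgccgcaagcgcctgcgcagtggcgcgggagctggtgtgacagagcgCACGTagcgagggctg
P4ha2 (chr11:54100674-54100923, plus strand): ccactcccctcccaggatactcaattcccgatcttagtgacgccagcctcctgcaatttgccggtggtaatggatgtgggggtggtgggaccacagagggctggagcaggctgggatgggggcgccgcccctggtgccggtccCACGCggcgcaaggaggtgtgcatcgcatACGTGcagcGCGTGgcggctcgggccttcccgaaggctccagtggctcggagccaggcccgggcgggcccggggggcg
Kdm3a has 3 windows, and the one shown is the only one of them with a match. Matches overlapped in none of the 5. ACGTG begins 229 bases before the start in Egln3, 68 in Egln1, 16 in P4ha1 and 78 in P4ha2. A match is a string of letters and was not tested as a binding site. Direct repeats of the retinoic acid receptor half-sites AGGTCA and AGTTCA with 5 bases between the copies were in none of the 55 windows and in 0.00913% and 0.0213% of all windows. At shares that low none would be expected in 55 windows, so the absence says nothing about the members. Pairs that mix the half-sites were not searched.

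Of those 5 genes, Egln3 and Kdm3a fell under RA, P4ha2 rose, and Egln1 and P4ha1 were not called. Egln3 stood at 1.71, 1.75 and 1.77 in DMSO and -0.91, -1.24 and -1.26 in RA. Its difference of -2.88 (SE 0.11, adjusted p = 2.1e-06), a 7.34-fold reduction, was the largest fall among the members, and its second probe gave -2.67. Kdm3a, an H3K9 demethylase, stood at 3.26, 3.28 and 3.31 in DMSO and 1.28, 1.16 and 0.96 in RA, a difference of -2.15 (SE 0.092, adjusted p = 3.72e-06). For both genes all RA samples lay far below all DMSO samples. P4ha2, a catalytic subunit of collagen prolyl 4-hydroxylase, rose from 1.00, 1.14 and 1.03 in DMSO to 2.52, 2.34 and 2.60 in RA, a difference of 1.43 (SE 0.089, adjusted p = 1.78e-05). Egln1, the main oxygen sensor of the group, stood at -2.54, -2.85 and -2.62 in DMSO and -2.58, -2.53 and -3.09 in RA and was not called, with a difference of -0.064 (95% interval -0.48 to 0.35). The DMSO and RA samples of Egln1 overlapped, and normexp background correction gave it a rise of 0.32. P4ha1, the sister subunit of P4ha2, stood at -1.43, -1.19 and -1.28 in DMSO and -1.12, -1.31 and -1.03 in RA, overlapped too and was not called at 0.15 (SE 0.10, adjusted p = 0.218).

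In VC against ddH2O, Egln2 rose. It stood at -0.017, -0.005 and 0.089 in ddH2O and 0.53, 0.36 and 0.62 in VC, a difference of 0.48 (SE 0.080, adjusted p = 0.0156), or 1.4-fold. Every VC sample was above every ddH2O sample. P4htm, a transmembrane prolyl hydroxylase of the endoplasmic reticulum, stood at -1.18, -1.18 and -0.96 in ddH2O and -0.79, -0.71 and -0.76 in VC and rose by 0.35 (SE 0.076, adjusted p = 0.0299), with its second probe at 0.35. Egln1 (0.66, 0.67 and 0.76 in ddH2O and 0.87, 0.89 and 0.84 in VC) was not called at 0.17 (SE 0.053, adjusted p = 0.0724). Egln3, the form that fell under RA, stood at 2.37, 2.38 and 2.37 in ddH2O and 2.10, 2.29 and 2.22 in VC, a difference of -0.17 (SE 0.064, adjusted p = 0.111). In both genes the groups did not overlap, and neither passed the test. Hif1an stood at -1.08, -0.82 and -0.95 in ddH2O and -0.69, -1.01 and -0.72 in VC and overlapped, at 0.15 (SE 0.11, adjusted p = 0.388). Its other probes differed by -0.31 (adjusted p = 0.0616) and 0.043 (adjusted p = 0.818). Under RA Hif1an stood at -0.40, -0.54 and -0.51 in DMSO and -0.60, -0.24 and -0.52 in RA, a difference of 0.031 (SE 0.11, adjusted p = 0.806). Egln2 and P4htm were not called under RA either, at -0.15 (SE 0.091, adjusted p = 0.177) and 0.065 (SE 0.076, adjusted p = 0.46). Scaling to the median or the spike-ins calls Egln2 lower there, at -0.49 and -0.54, and the median scaling calls P4htm lower at -0.28.

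The wider list of HIF subunits and targets moved mostly down under RA. Outside the members, 28 were tested, of which 19 fell and 4 rose, with a median of -0.77 against -0.075 for all genes. Pdk1, a kinase that inactivates pyruvate dehydrogenase, fell by 3.75 and the stress gene Ndrg1 by 3.22 on the log2 scale. Arnt2, a HIF beta subunit, rose by 1.39 (adjusted p = 0.00197) and the glycolytic regulator Pfkfb4 by 1.29 (adjusted p = 1.57e-05). Vhl, which binds hydroxylated HIF alpha, rose by 0.34 (adjusted p = 0.00646), less than the shift of spike-in scaling, and Hif1a itself was not called at -0.20 (adjusted p = 0.318). Under VC 26 of the 28 were not called and 2 fell, Ndrg1 at -0.48 (adjusted p = 0.0216) and Pfkfb4 at -0.21 (adjusted p = 0.0389), with a median of -0.098.

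Of the 9 collagen hydroxylases tested under RA, 6 rose, Plod2 fell, and P4ha1 and Plod1 were not called. P4HA proteins hydroxylate the prolines that hold the collagen triple helix together, the P3H proteins a neighbouring type of proline, and the PLOD proteins the lysines through which fibres are crosslinked. P3h2 stood at -6.81, -6.82 and -6.62 in DMSO and -3.17, -3.41 and -3.44 in RA, not well above background on any DMSO array, and was at least 6.71-fold higher in RA (adjusted p = 8.86e-07). It passed the filter through the 3 RA arrays, so its call is no support for the group, and without it 5 of 8 rose. P3h3 stood at -0.60, -0.68 and -0.55 in DMSO and 0.55, 0.61 and 0.31 in RA, a difference of 1.10 (SE 0.097, adjusted p = 8.15e-05). P4ha3 stood at -1.91, -1.96 and -1.97 in DMSO and -1.36, -1.35 and -1.17 in RA, a difference of 0.65 (SE 0.073, adjusted p = 0.000249). P3h3 and P4ha3 did not overlap between the groups, and the call of P4ha3 was lost under spike-in scaling at 0.27.

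P3h1 gave different answers from different probes. The brightest stood at 1.34, 1.31 and 1.17 in DMSO and 1.92, 1.76 and 1.79 in RA, a difference of 0.55 (SE 0.077, adjusted p = 0.000725), while the other differed by -0.39, lower in RA, and the mean of both probes gave no call. Plod3 stood at 1.65, 1.67 and 1.64 in DMSO and 2.02, 1.81 and 1.89 in RA and rose by 0.26 (SE 0.070, adjusted p = 0.0152). That small rise became -0.086 with the array median as the scale and -0.13 with spike-ins, so its direction under RA is set by the scaling. Plod1 stood at -1.62, -1.62 and -1.82 in DMSO and -1.34, -1.31 and -1.74 in RA, overlapping, at 0.22 (SE 0.14, adjusted p = 0.175). Plod2, the lysyl hydroxylase of collagen telopeptides and a known HIF target, fell. It stood at 1.92, 2.03 and 1.91 in DMSO and 0.57, 0.98 and 0.75 in RA, a fall of 1.19 on the log2 scale (SE 0.11, adjusted p = 0.000114), and every RA sample was below every DMSO sample.

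**Figure D3:**
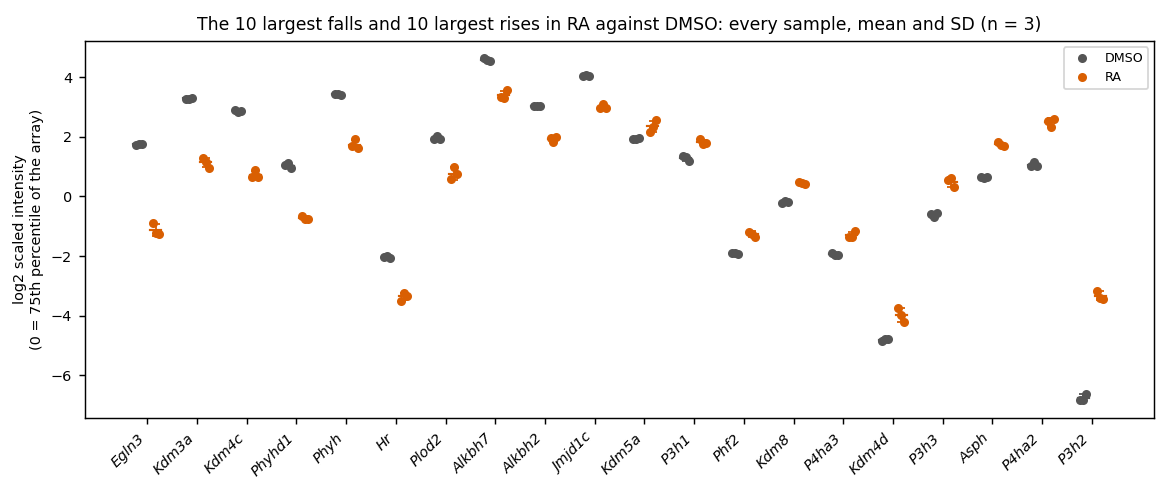
Log2 scaled intensity of every sample for the 10 called members that fell most and the 10 that rose most in RA (orange) against DMSO (grey), with the mean and SD of 3 samples. Points of the groups do not overlap for any gene shown, since genes with overlap were not eligible, and levels are not comparable between genes. P3h2 passed the filter only through the RA arrays, and its DMSO points are not well above background. Among the rises, Kdm5a and P3h1 lose their call when arrays are scaled to the median or to spike-ins, and Phf2, Kdm8, P4ha3 and Kdm4d when scaled to spike-ins.

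Under VC 2 of the 7 collagen hydroxylases tested fell, beside 10.6% of all genes lower. P4ha2 stood at 1.75, 1.84 and 1.83 in ddH2O and 1.06, 1.30 and 1.04 in VC, a difference of -0.68 (SE 0.083, adjusted p = 0.00863), or 1.6-fold lower. The highest VC sample, at 1.30, was well below the lowest ddH2O sample, at 1.75. P3h3 stood at -0.98, -0.96 and -0.80 in ddH2O and -1.26, -1.13 and -1.22 in VC, a difference of -0.28 (SE 0.072, adjusted p = 0.0439), also without overlap. That call held in only 5 of 18 alternatives and was lost with median scaling, with spike-in scaling and without any single sample. Plod2 (2.43, 2.52 and 2.50 in ddH2O and 2.20, 2.32 and 2.33 in VC) did not pass the test at -0.20 (SE 0.060, adjusted p = 0.0668). P4ha1 stood at 1.39, 1.41 and 1.36 in ddH2O and 1.00, 1.19 and 1.36 in VC, a difference of -0.20 (SE 0.094, adjusted p = 0.183). In both of these the groups did not overlap, but VC sample 3 of P4ha1 lay just under the lowest ddH2O sample. Plod1, at -1.53, -1.36 and -1.14 in ddH2O and -1.35, -1.48 and -1.17 in VC, overlapped, with 0.013 (SE 0.12, adjusted p = 0.952). P3h1 stood at -1.89, -1.98 and -2.00 in ddH2O and -1.83, -1.85 and -1.82 in VC, a difference of 0.12 (SE 0.054, adjusted p = 0.171), and Plod3 was not called at 0.21 (SE 0.10, adjusted p = 0.189).

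Collagen chains are the substrates of these enzymes. Of 18 collagen chain genes tested under RA, 16 rose and 1 fell, with a median of 2.49. How many of them passed the filter only through the RA arrays was not counted. Col1a2, a chain of the main fibrillar collagen, rose by 6.10 (adjusted p = 6.07e-08) and Col6a1, of beaded filaments, by 5.19 (adjusted p = 7.52e-07), while Col6a3 fell by 0.87 on the log2 scale. Among 17 folding and processing partners 10 rose and 5 fell, and their median of 0.37 became 0.033 with median and -0.014 with spike-in scaling. Serpinh1, the collagen chaperone of the endoplasmic reticulum, rose by 2.65 (adjusted p = 1.79e-06) and the collagen galactosyltransferase Colgalt2 by 2.43 (adjusted p = 1.75e-05). Pcolce, an enhancer of procollagen cleavage, fell by 3.16 and Crtap, which binds P3H1, by 0.87 on the log2 scale. P4hb, the beta subunit shared by all P4HA enzymes, differed by 0.36 (adjusted p = 0.0123), also less than the spike-in shift. Of the fibroblast list, 8 tested markers are not collagens, and 7 of these rose and 1 fell, with Postn and Lum not tested on either design. The part of these markers and of the endoderm markers in the rise of the hydroxylases was not tested.

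Under VC, 4 of 18 collagen chains fell and 14 were not called, with a median of -0.12. Col1a1 differed by -0.54 (adjusted p = 0.0367) and Col7a1 by -0.54 (adjusted p = 0.00941). Of 16 partners 3 fell and 1 rose. The lysyl oxidase Loxl2, at -0.82 (adjusted p = 0.00705), and Colgalt2, at -0.77 (adjusted p = 0.00654), had the largest falls, and Colgalt1 rose by 0.26 (adjusted p = 0.0413). Fibroblast markers held 4 falls and 1 rise among 13 tested, with a summed scaled intensity of 13.2 to 14.4 in ddH2O and 14.9 to 15.1 in VC. Endoderm markers held 3 falls among 13, with sums of 28.3 to 32.2 and 27.2 to 31.3. The part of those cell type markers in the VC result was not tested.

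**Figure D4:**
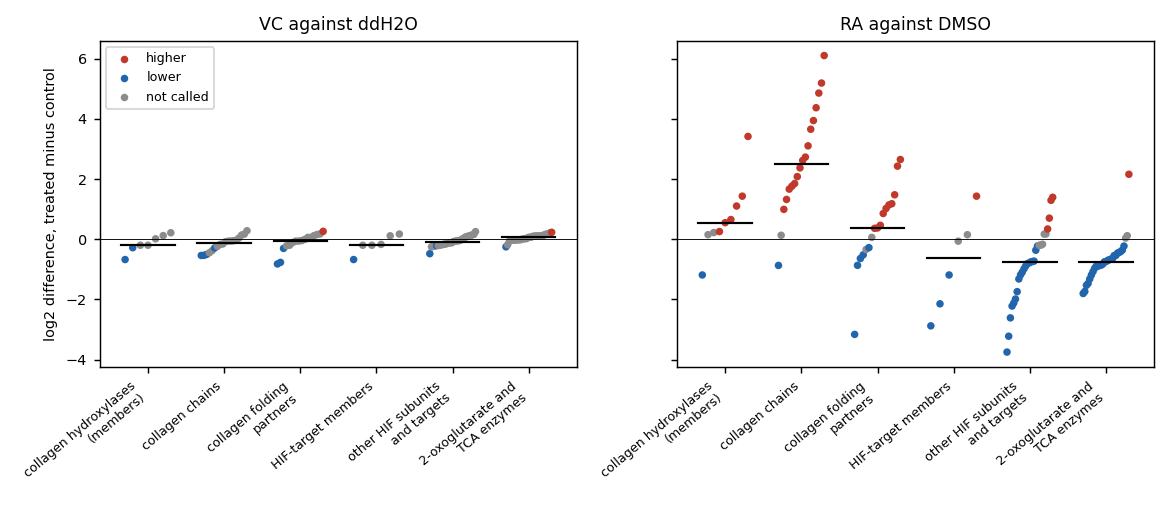
Log2 difference of each tested gene (points, coloured by call) in 6 gene groups, with the median of each group as a bar, for VC against ddH2O and RA against DMSO. Under RA the medians are 0.55 for the collagen hydroxylases, 2.49 for collagen chains and -0.77 for HIF genes outside the members, and under VC they are -0.20, -0.12 and -0.098. The RA median of the collagen hydroxylases is 0.21 with median and 0.16 with spike-in scaling. The RA medians of this group include P3h2, which passed the filter only through the RA arrays.

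Of the 17 histone demethylases 11 fell and 3 rose under RA, beside 42.1% of all genes lower and 35.9% higher. Among 6 that act on H3K9, 4 fell and 1 rose, and among 4 of the KDM4 family 3 fell and 1 rose. Both KDM2 genes fell, KDM5 held 1 fall and 1 rise of 3, and Kdm6a fell while Kdm6b was not called. Kdm4c, which acts on methylated H3K9 and H3K36, stood at 2.88, 2.83 and 2.85 in DMSO and 0.65, 0.87 and 0.64 in RA, a difference of -2.13 (SE 0.081, adjusted p = 2.3e-06). Jmjd1c, a relative of Kdm3a, stood at 4.02, 4.06 and 4.04 in DMSO and 2.95, 3.09 and 2.95 in RA, a difference of -1.04 (SE 0.064, adjusted p = 1.73e-05). Hr, a corepressor of the same subfamily, stood at -2.03, -1.99 and -2.06 in DMSO and -3.50, -3.23 and -3.34 in RA, a difference of -1.33 (SE 0.082, adjusted p = 1.72e-05). No sample overlapped between the groups in these 3 genes, and each kept its call under all 16 alternatives.

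Kdm5b, which removes H3K4 methylation, stood at 6.27, 6.31 and 6.26 in DMSO and 5.35, 5.33 and 5.38 in RA, a difference of -0.93 (SE 0.055, adjusted p = 1.46e-05), with its second probe at -1.26. Kdm4b stood at 2.60, 2.58 and 2.61 in DMSO and 1.86, 1.94 and 1.71 in RA, a difference of -0.76 (SE 0.076, adjusted p = 0.000146). Kdm2b, which brings Polycomb complexes to CpG islands, stood at 4.91, 4.80 and 4.84 in DMSO and 4.45, 4.49 and 4.13 in RA, a difference of -0.49 (SE 0.11, adjusted p = 0.00561). All 3 were lower in every RA sample, though Kdm2b lost its call after quantile normalization. Kdm6a, an H3K27 demethylase on the X chromosome, stood at 0.27, 0.093 and 0.28 in DMSO and -0.60, -0.42 and -0.26 in RA, a difference of -0.64 (SE 0.11, adjusted p = 0.00166). Kdm4a stood at 2.30, 2.17 and 2.07 in DMSO and 1.69, 1.72 and 1.68 in RA, a difference of -0.48 (SE 0.075, adjusted p = 0.00115), and its other probe differed by 0.60 without passing the test. For Kdm4a the mean of the probes was 0.056, so its direction rests on the probe taken. Phf8, which removes H3K9 and H4K20 methylation, fell as well, by 0.79 on the log2 scale, and Kdm2a by 0.44.

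The 3 rises among the demethylases ran from 0.41 to 0.82. Kdm4d, a form known from testis, stood at -4.86, -4.77 and -4.77 in DMSO and -3.76, -3.98 and -4.21 in RA, a difference of 0.82 (SE 0.12, adjusted p = 0.000923). Phf2, which removes H3K9 methylation, stood at -1.92, -1.91 and -1.92 in DMSO and -1.18, -1.26 and -1.38 in RA, a difference of 0.64 (SE 0.069, adjusted p = 0.000207). Kdm5a stood at 1.92, 1.92 and 1.97 in DMSO and 2.16, 2.32 and 2.55 in RA, a difference of 0.41 (SE 0.11, adjusted p = 0.0119). These rises had no overlap between groups, but spike-in scaling ended all 3 calls and median scaling that of Kdm5a. Kdm6b, the second H3K27 demethylase, stood at 1.90, 1.83 and 1.86 in DMSO and 2.10, 1.94 and 2.49 in RA and did not pass the test at 0.31 (SE 0.14, adjusted p = 0.0894). Kdm3b stood at -0.73, -0.78 and -0.74 in DMSO and -1.24, -1.30 and -0.69 in RA, a difference of -0.33 (SE 0.17, adjusted p = 0.11), and RA sample 3 lay above all DMSO samples while the other 2 lay below. Without that sample Kdm3b was called, at -0.52, and without RA sample 2 Kdm6b was called, at 0.43. Kdm5c was not called at -0.020 (SE 0.083, adjusted p = 0.837), and its call depended on the processing: lower with median scaling (-0.36) and normexp (-0.21), higher with quantile normalization (0.23).

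Under VC Kdm6a alone of these 17 demethylases was called. It stood at -0.20, -0.17 and -0.19 in ddH2O and 0.11, -0.009 and 0.023 in VC, a rise of 0.23 (SE 0.055, adjusted p = 0.0385), or 1.17-fold, with no overlap. Its Y-linked relative Uty is close in sequence, and whether the probe tells them apart was not tested. Kdm2b (1.84, 1.96 and 2.02 in ddH2O and 2.20, 2.11 and 2.20 in VC) and Jmjd1c missed the threshold at 0.23 (SE 0.067, adjusted p = 0.0645) and 0.19 (SE 0.057, adjusted p = 0.0627). Kdm4d, at -0.34 (SE 0.10, adjusted p = 0.063), lay lower in every VC sample and was not called. Kdm3a, the largest H3K9 fall under RA, stood at 2.55, 2.54 and 2.52 in ddH2O and 2.65, 2.62 and 2.68 in VC here, a difference of 0.11 (SE 0.049, adjusted p = 0.156). Its groups did not overlap, although the difference was small. Kdm6b stood at 2.62, 2.49 and 2.65 in ddH2O and 2.38, 2.54 and 2.51 in VC, a difference of -0.11 (SE 0.072, adjusted p = 0.319). Kdm3b stood at -0.34, -0.40 and -0.53 in ddH2O and -0.41, -0.53 and -0.57 in VC, a difference of -0.081 (SE 0.074, adjusted p = 0.473). Both overlapped between the groups. So did Kdm4a, Kdm4b, Kdm4c and Kdm5b, at -0.073 (SE 0.072, adjusted p = 0.508), 0.16 (SE 0.088, adjusted p = 0.258), -0.064 (SE 0.066, adjusted p = 0.529) and 0.090 (SE 0.074, adjusted p = 0.425). The other demethylases, Kdm2a, Kdm5a, Kdm5c, Phf2, Phf8 and Hr, had differences between -0.16 and 0.19 and were not called.

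Histone methyltransferases, many of which add marks that these enzymes remove, were split. Under VC 5 of 24 rose and 2 fell, with Nsd1 at 0.37 (adjusted p = 0.0255) and Setdb1 at 0.36 (adjusted p = 0.023) the largest rises and Setd7 at -0.30 (adjusted p = 0.0216) and Ehmt2 at -0.26 (adjusted p = 0.0399) the falls. Under RA 6 rose and 15 fell, with a median of -0.38. Nsd2, an H3K36 methyltransferase, rose by 2.26 (adjusted p = 3.12e-06) and Setd7 by 1.65 (adjusted p = 4.73e-06), while Smyd2 fell by 1.94 and Kmt2c by 1.42 on the log2 scale. The LSD1 family, which demethylates with FAD in place of iron, and its partners held 6 falls and 1 rise of 7 under RA. Rcor2 had the largest fall, at -1.40 (adjusted p = 4.22e-05), and Rcor1 was the rise, at 0.38 (adjusted p = 0.00257), less than the spike-in shift. Under VC 1 of 6 fell, Kdm1b at -0.29 (adjusted p = 0.0165).

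JmjC proteins outside the demethylase families included the only member called higher in both comparisons. Kdm8, which is known as a hydroxylase and as a regulator of the cell cycle, stood at -2.80, -2.94 and -2.87 in ddH2O and -2.40, -2.60 and -2.33 in VC, a difference of 0.43 (SE 0.085, adjusted p = 0.0234). Under RA it stood at -0.24, -0.17 and -0.20 in DMSO and 0.49, 0.43 and 0.41 in RA, a difference of 0.65 (SE 0.057, adjusted p = 8.47e-05). Its samples did not overlap on either design, and spike-in scaling ended the RA call at 0.26. Jmjd6, a lysyl hydroxylase of splicing proteins, stood at 1.46, 1.36 and 1.44 in DMSO and 0.70, 0.59 and 0.56 in RA, a difference of -0.80 (SE 0.068, adjusted p = 6.78e-05). The ribosomal oxygenases Riox1 and Riox2 fell by 0.88 and 0.97 on the log2 scale, without overlap. Jmjd4 and Jmjd8 were not called under RA, at 0.094 and 0.22. Under VC, Jmjd6 stood at 1.76, 1.79 and 1.82 in ddH2O and 1.98, 1.98 and 1.93 in VC and missed the threshold at 0.17 (SE 0.051, adjusted p = 0.0636). Jmjd4 and Jmjd8, at 0.29 and 0.30, lay higher in every VC sample without passing the test, and Riox1 and Riox2, at 0.13 and -0.052, were not called.

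Of the 8 AlkB genes 6 fell under RA, and Alkbh4 and Fto were not called. The share called, 75%, was near the 78.0% of all genes, and 42.1% of all genes fell. Alkbh7, a mitochondrial form, stood at 4.64, 4.57 and 4.53 in DMSO and 3.34, 3.31 and 3.57 in RA, a difference of -1.18 (SE 0.087, adjusted p = 3.92e-05), with its second probe at -1.50. Alkbh2, which repairs alkylated DNA, stood at 3.02, 3.02 and 3.02 in DMSO and 1.97, 1.83 and 1.98 in RA, a difference of -1.09 (SE 0.064, adjusted p = 1.41e-05). Both fell without overlap and kept their calls under all 16 alternatives. Alkbh5, the eraser of m6A in messenger RNA, stood at 2.85, 2.87 and 2.97 in DMSO and 2.23, 2.17 and 2.17 in RA, a difference of -0.71 (SE 0.062, adjusted p = 7.77e-05), and its 3 probes all fell. Alkbh1 stood at 0.41, 0.24 and 0.30 in DMSO and -0.35, -0.13 and -0.65 in RA, a difference of -0.69 (SE 0.14, adjusted p = 0.00365). Alkbh3 and the tRNA enzyme Alkbh8 fell by 0.61 and 0.66 on the log2 scale. Fto, the other m6A eraser, was not called. It stood at 0.29, 0.20 and 0.28 in DMSO and 0.59, 0.45 and 0.28 in RA, a difference of 0.18 (SE 0.090, adjusted p = 0.103), with 1 RA sample inside the DMSO range. Alkbh4 was not called, at -0.085 (SE 0.062, adjusted p = 0.244), though both median and spike-in scaling called it lower, at -0.43 and -0.47.

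Under VC, Alkbh4, which acts on methylated actin, stood at 0.89, 0.88 and 0.88 in ddH2O and 1.14, 1.14 and 1.23 in VC, a rise of 0.29 (SE 0.052, adjusted p = 0.0187), or 1.22-fold. The samples within each group were close and the groups were well apart. Alkbh1 stood at -0.62, -0.59 and -0.54 in ddH2O and -0.14, -0.40 and -0.40 in VC, a difference of 0.27 (SE 0.085, adjusted p = 0.077), apart but not called. Alkbh5 stood at 2.79, 2.84 and 2.87 in ddH2O and 2.84, 3.07 and 2.84 in VC, a difference of 0.083 (SE 0.078, adjusted p = 0.489). Its other probe went the opposite way, at -0.21 (SE 0.062, adjusted p = 0.0864). Fto stood at -0.22, -0.30 and -0.031 in ddH2O and -0.078, -0.068 and -0.17 in VC, a difference of 0.079 (SE 0.082, adjusted p = 0.53). Both m6A erasers overlapped between the groups. Alkbh2, Alkbh3, Alkbh7 and Alkbh8 had differences from -0.018 to 0.21 and were not called. The other probe of Alkbh8 differed by -0.27 (adjusted p = 0.0584) and that of Alkbh3 by 0.19 (adjusted p = 0.121). Each was opposite in sign to the brightest probe of its gene.

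Of 17 writers and readers of m6A, 11 fell and 2 rose under RA, with a median of -0.37. That is 76.5% called, near the 78.0% of all genes, and 42.1% of all genes fell. Ythdc2, a reader and helicase, fell by 1.00 and the writer subunit Zc3h13 by 0.83 on the log2 scale, while the writer subunit Rbm15b rose by 1.01 (adjusted p = 0.00486) and the reader Igf2bp2 by 0.63 (adjusted p = 0.000589). Mettl3, the catalytic writer, was not called at 0.13 (adjusted p = 0.243). Under VC 1 of 17 rose, Ythdf3 at 0.30 (adjusted p = 0.02), and 2 fell, Virma at -0.30 (adjusted p = 0.0241) and Igf2bp2 at -0.26 (adjusted p = 0.0272).

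Asph, which hydroxylates residues in EGF-like domains, changed in the same direction as P4ha2 in both comparisons. It stood at 0.95, 1.05 and 0.89 in ddH2O and 0.49, 0.56 and 0.61 in VC, a fall of 0.41 on the log2 scale (SE 0.066, adjusted p = 0.0138). Its 3 other detected probes differed by -0.27, -0.37 and -0.54. Under RA it stood at 0.64, 0.62 and 0.65 in DMSO and 1.81, 1.72 and 1.70 in RA, a difference of 1.11 (SE 0.059, adjusted p = 9.03e-06), and its other detected probes at 0.44 and 0.33. No sample overlapped in the brightest probe. The ribosomal prolyl hydroxylase Ogfod1 differed under RA by -0.29 (SE 0.094, adjusted p = 0.0296) and its relative Ogfod2 by -0.29 (SE 0.064, adjusted p = 0.0061), while Ogfod3 was not called at 0.043 (SE 0.082, adjusted p = 0.645). Ogfod1 was at 0.066 with quantile normalization, so the sign of that probe rests on the scaling, while a second probe differed by -1.09. Under VC the differences of these 3 were between -0.025 and -0.004, and none was called.

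Small-molecule hydroxylases fell under RA where they could be tested. Phyh, the peroxisomal enzyme that starts the breakdown of phytanic acid, stood at 3.42, 3.45 and 3.40 in DMSO and 1.67, 1.91 and 1.63 in RA, a difference of -1.68 (SE 0.088, adjusted p = 8.58e-06). Its relative Phyhd1 stood at 1.04, 1.11 and 0.95 in DMSO and -0.66, -0.77 and -0.76 in RA, a difference of -1.76 (SE 0.071, adjusted p = 2.83e-06). Both were lower in every RA sample. Tmlhe, which opens the carnitine pathway, was well above background on 2 RA arrays and no DMSO array and was not tested there. Bbox1, which closes it, was not tested on either design. Under VC, Phyh, Phyhd1 and Tmlhe were not called, at -0.10 (SE 0.071, adjusted p = 0.356), -0.31 (SE 0.10, adjusted p = 0.0864) and -0.83 (SE 0.34, adjusted p = 0.146). Without ddH2O sample 3 Tmlhe was called lower, at -1.20.

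Genes that supply the family's cosubstrates also differed. Of 29 enzymes around 2-oxoglutarate and the TCA cycle, 26 fell and 1 rose under RA, beside 42.1% of all genes lower and 35.9% higher. Their median was -0.74, and Idh3a, at -1.80 (adjusted p = 1.92e-05), and Got1, at -1.73 (adjusted p = 1.22e-06), fell most. Aco1, the cytosolic aconitase that doubles as an iron sensor, rose by 2.16 (adjusted p = 1.73e-05). Of 18 genes of iron and ascorbate supply 9 fell and 6 rose. The smallest of these rises, at 0.19 to 0.24, were less than the shifts of median and spike-in scaling, and Aco1 is counted in both lists. The transferrin receptor Tfrc fell by 2.42 and the ascorbate transporter Slc23a1 by 2.37 on the log2 scale, and the iron exporter Slc40a1 rose by 2.11 (adjusted p = 5.51e-06). Under VC 1 of 28 enzymes of the first list rose, Got1 at 0.23 (adjusted p = 0.0337), and 1 fell, Gpt2 at -0.25 (adjusted p = 0.0462). In the supply list 5 rose and 1 fell, with the thioredoxin reductase Txnrd1 at 0.46 (adjusted p = 0.00949), the ferritin light chain Ftl1 at 0.42 (adjusted p = 0.0128) and Slc23a1 at 0.41 (adjusted p = 0.0404) among the rises and Gsto2 at -0.45 (adjusted p = 0.0464) the fall. Further dioxygenases outside the 53 genes held 6 falls and 1 rise of 10 under RA, led by Asphd1 at -2.90 (adjusted p = 1.73e-06) and Asphd2 at 1.91 (adjusted p = 1.23e-06), and 2 rises of 11 under VC, Kdm5d at 0.43 (adjusted p = 0.0136) and Jmjd7 at 0.32 (adjusted p = 0.0157). Whether the probes of Kdm5d and its X-linked copy Kdm5c tell the genes apart was not tested.

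Set side by side, 5 members were called in both comparisons, which share no samples. As 78.0% of all genes were called under RA, that count is no result about the family. The share of all genes called in both comparisons, or in opposite directions, was not counted. P4ha2, P3h3 and Asph fell under VC and rose under RA, Kdm6a rose under VC and fell under RA, and Kdm8 rose in both. Egln2, P4htm and Alkbh4 rose under VC and were not called under RA. A further 25 members fell and 5 rose under RA without a call under VC. The difference between the 2 comparisons was not tested, since they are on different array designs.

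**Figure D5:**
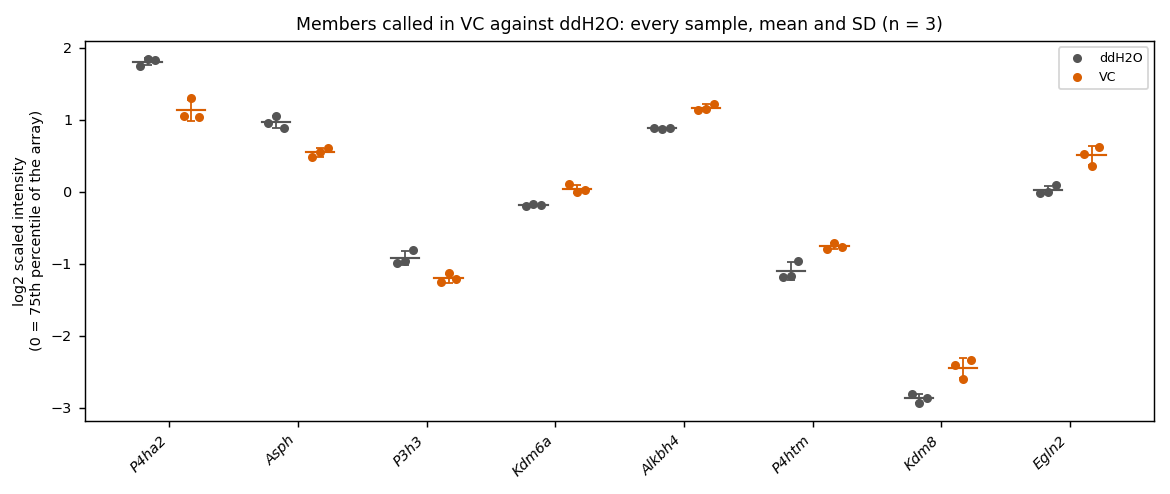
Log2 scaled intensity of every sample for the 8 members called in VC (orange) against ddH2O (grey), with the mean and SD of 3 samples. P4ha2 falls from between 1.75 and 1.84 to between 1.04 and 1.30, the largest of these differences, and levels are not comparable between genes.

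The VC calls rest on few arrays. Leaving out 1 sample left 2 members called without ddH2O sample 1, 1 without ddH2O sample 2, 6 without ddH2O sample 3, 1 without VC sample 1, 5 without VC sample 2 and 4 without VC sample 3. With the slide as a fixed block no member and no gene was called by limma, while 17 members and 3889 genes had an unadjusted p under 0.05. The groups did not overlap for the 8 called members. An equal sign within the shared slide and between the separate slides was therefore fixed in advance for them. Of all 50 members tested, 45 had an equal sign, including the 26 without overlap, for which it was fixed too. P4ha2 differed by -0.66 within the shared slide and by -0.71 between the others, Asph by -0.45 and -0.35, P3h3 by -0.31 and -0.23, and Egln2 by 0.41 and 0.64. Kdm8 differed by 0.40 and 0.47, P4htm by 0.31 and 0.41, Alkbh4 by 0.26 and 0.34, and Kdm6a by 0.23 and 0.23. P4ha2 kept its call in 17 of 18 alternatives, losing it with the slide block, and P3h3 in 5. P3h3 and Kdm6a lost their calls whichever of the 6 samples was left out.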

How the data were processed

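The 53 members and all lists were chosen with earlier results of these data known. Per the file headers, the scanner files deposited by the authors give spot intensities that Agilent Feature Extraction 10.7.3.1 had background-subtracted (the submitters' processing notes give version 10.7). The deposited series tables, used as an alternative, hold log2 values by the authors, with a normalization not given in the sources used here. Processed intensities were put on the log2 scale and each array's 75th percentile was subtracted. Probes were named by matching accessions to RefSeq symbols, 27479 of 41174 probes on the VC design and 27235 of 55681 on the RA design, and each gene was read from its brightest probe. Each design was fitted alone with limma 3.58.1 in R 4.3.3 (lmFit, eBayes), with Benjamini-Hochberg adjustment over all genes tested and a threshold of 0.05. The procedure was tested on simulated data. No spot was saturated, and 60.8% to 70.3% of probes stood well above background. For P3h2 the lower bound divides the RA mean by, on each DMSO array, the higher of its own signal and the lowest signal well above background. Values in every sample are given for members called under VC, for the 10 largest rises and falls under RA without overlap, and for a list of 21 members. Of each pathway list up to 2 of the largest called rises and falls are named. Hif1a, Vhl, Mettl3, P4hb, Crtap and Slc23a1 were added for their roles after their values were seen. The alternatives were other scalings, background corrections, filters, probe rules, blocks and left-out samples.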

Additional observations from a re-analysis of the deposited data

How the results depend on the processing

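With 3 arrays a group, their number limits the precision. Under VC against ddH2O, 8 members were called, 5 higher and 3 lower. Scaling to the array median gave 10 higher and scaling to spike-ins 9. Over all genes, 56.6% and 56.1% of the calls were then higher, against 38.5% in the main setting. Normexp background correction gave 4 called, 2 of them higher, as did leaving dim probes in. A trended prior gave 14, 9 higher and 5 lower. The slide as a fixed block gave 0 called, 0 higher and 0 lower, with 17 members at an unadjusted p under 0.05 in limma. Leaving out 1 sample gave 1 to 6 called, 0 to 3 higher and 1 to 3 lower. Over all genes, 2491 were called in the main setting, 987 with normexp, 1004 without the filter and 397 to 1810 with a sample left out. Deviations of same-numbered samples from their group means correlated at -0.116 to 0.06. With 3 samples a group, such values cannot decide whether the samples were paired. The replicate block gave 3 members called under VC, 2 higher and 1 lower, and 36 under RA. Under RA against DMSO, 37 were called and the alternatives gave 33 to 44, with 4 to 15 higher and 25 to 32 lower. The 4 came from spike-in scaling. Among differences called in either setting, signs turned for Plod3 (-0.086 with median and -0.133 with spike-in scaling), P4htm (-0.277) and Ogfod3 (-0.298) with median scaling, Kdm5c (0.228) with quantile normalization (called lower with median scaling and normexp), Ogfod1 (0.066 with quantile normalization and 0.043 in the authors' values), Egln1 (0.324) with normexp, and Kdm4a (0.056) with the mean of probes. Differences not called that lay just above 0 (P4ha1, Fto, Jmjd4, Jmjd8, Plod1, Hif1an and Kdm6b) also fell below 0 with median and spike-in scaling, as did P4htm and Ogfod3 with spike-ins. The causes of these shifts were not tested. No sign of a called member turned under VC. Probes of one gene did not always share a sign. Of 22 members with several tested probes under VC, 14 had equal signs in all of them. The signs differed for Alkbh3, Alkbh5, Alkbh8, Hif1an, Kdm4a, Kdm5a, Ogfod1 and Ogfod2, none of them called under VC. Under RA, 12 of 16 had equal signs, and Kdm4a, Kdm5c, P3h1 and Plod1 did not.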
